A study of Mus musculus with 30 samples.

Results

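Gastrocnemius of mice given a western diet (WD) together with cyclo(His-Pro) (CHP) was compared with gastrocnemius of mice on a control chow diet (CD), 5 libraries against 5. Members were chosen by the tissue and treatment in the sample labels, and these 10 libraries are part of a series of 30. The question was what still set the muscle of treated mice apart from that of mice never fed the WD. All were wild-type male C57BL/6J mice that had lived at 30 to 32 °C, near thermoneutrality, since 6 weeks of age. Diets and treatment ran from Week 7 to Week 24 and tissue followed a fast of 3 h. CHP, a ring-shaped dipeptide made of histidine and proline, was gavaged at 20 mg/kg on 3 occasions per week, and CD mice were gavaged with water. No group received CHP on the CD, so the effects of diet and of CHP cannot be told apart in this contrast. The 5 gastrocnemius libraries of WD mice given water stayed in the fitted model and their values are shown for reference.

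The gastrocnemius is a calf muscle built mainly of fast fibres, which store glycogen and contract quickly, with fewer slow fibres that rely on mitochondria and fat. Dietary fat reaches a muscle fibre as fatty acids, which are bound, activated with coenzyme A, carried into mitochondria on carnitine and shortened by β-oxidation. Nuclear receptors of the PPAR family sense these fatty acids and switch on many of the genes that burn or store them.

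Between 51614126 and 53282969 reads per library were counted on genes in the 10 libraries. Mitochondrially encoded genes took 7.74% to 10.25% of the counts in CD and 9.49% to 11.53% in WD+CHP. CD replicate 5 had a count in 24482 genes, whereas the other 9 libraries had one in 21333 to 22124. The sample labels describe liver as the source of the RNA, so the tissue was checked by markers. All 14 fast-fibre markers were measured and summed to 246800 to 315200 CPM (the CPM scale divides counts by library size), while 10 of 10 markers of the kidney proximal tubule were too low to test. Of 12 hepatocyte markers 7 were testable, and all 12 summed to 11.8 to 88.1 CPM in CD and 4.33 to 5.91 CPM in WD+CHP. In CD replicates 2 to 5 Cyp2e1 alone made up 10.8 to 15.1 CPM of that sum. The libraries thus held the RNA of fast skeletal muscle with traces of liver-type transcripts, which were highest in CD replicate 1. CD replicates 1 and 2 stood apart from CD replicates 3 to 5. The chi-square of their counts per gene was 17.0 between replicates 1 and 2 and 13.7 to 16.4 among replicates 3 to 5. Between the sets it was 32.7 to 50.55, so counts are also given without both replicates 1 and 2, an alternative chosen after the data were seen. Among the WD+CHP libraries the same chi-square was 9.61 between replicates 2 and 3 and 16.6 to 34.9 in the other pairs. No pair of WD+CHP libraries was left out together.

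Of 15419 genes tested, 1450 differed between WD+CHP and CD with an adjusted p under 0.05, which is 9.40% of them. Of these genes 748 rose in WD+CHP (4.85%) and 702 fell (4.55%). Most differences were small, with a median absolute log2 fold change of 0.38 among called genes, and 65 rises and 61 falls reached 2-fold. The counts of all 5 WD+CHP libraries lay above or below those of all 5 CD libraries in 1349 genes (8.75%). The median over all genes tested was -0.01. Without CD replicate 3 the count of called genes was 930, and without WD+CHP replicate 3 it was 873, whereas 718 genes were called in the full set and in each of the 10 fits that left out a library. Without both CD replicates 1 and 2 the count was 1633, of which 1069 were also called with all libraries. In the same model 1330 genes (8.63%) were called between WD and CD and 63 (0.409%) between WD+CHP and WD.

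**Figure D1:**
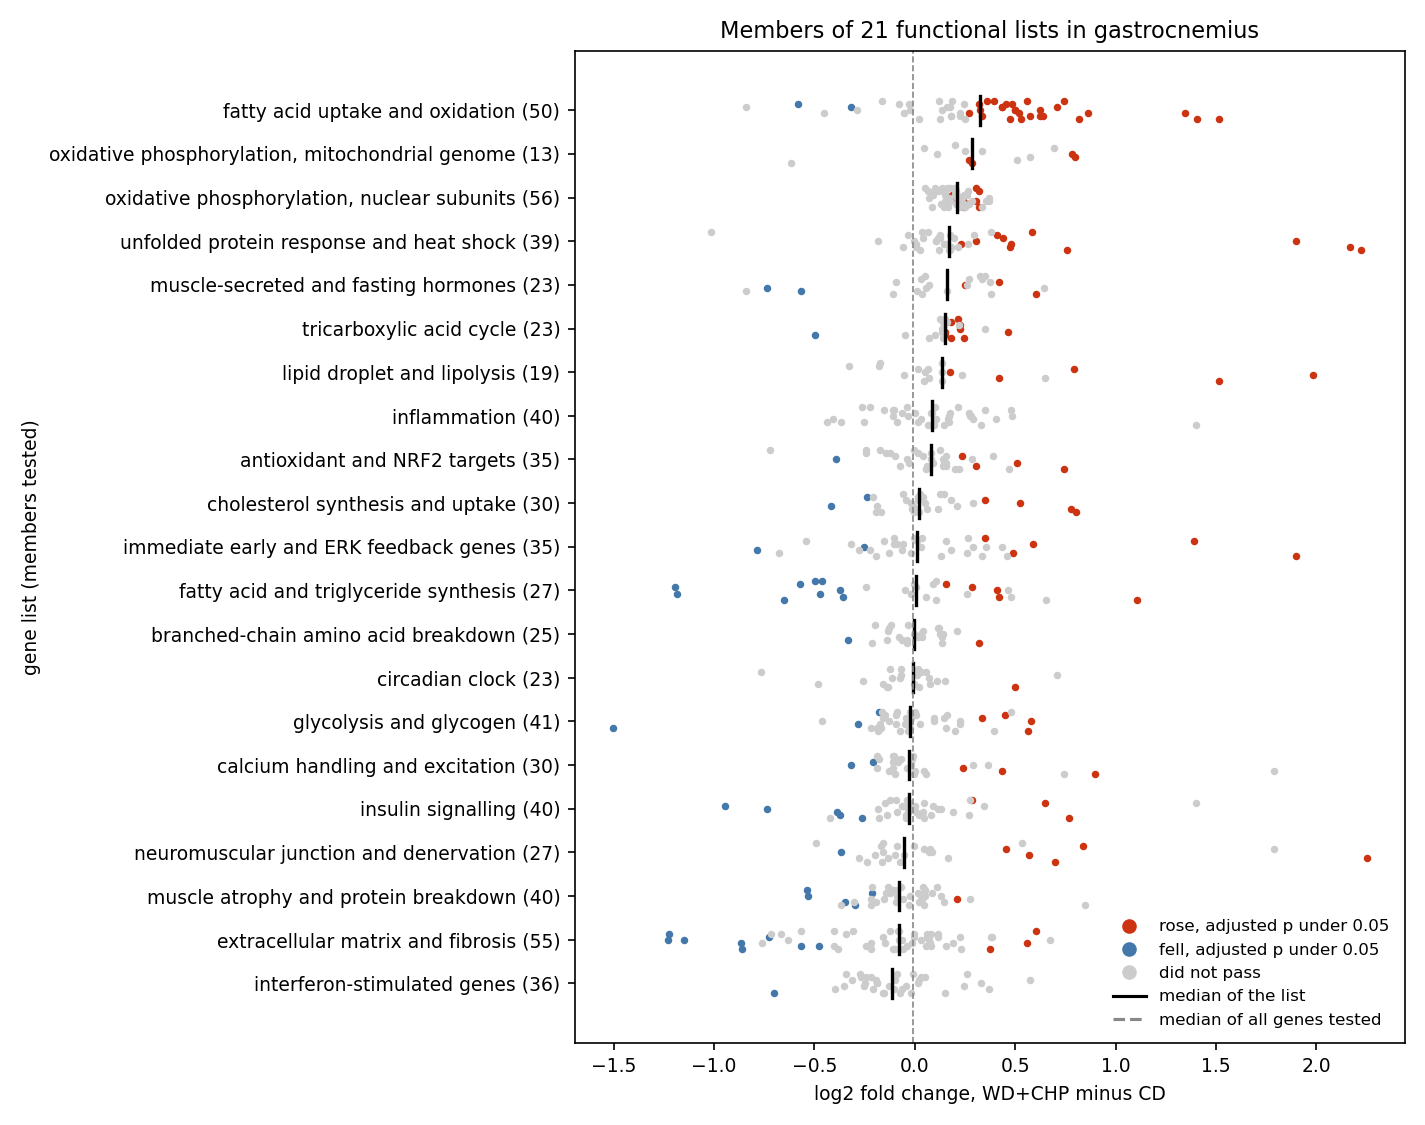
Log2 fold change of WD+CHP minus CD on the horizontal axis for the tested members of 21 functional gene lists, 1 point per gene, with the list median as a black bar and the median of all genes tested as a dashed line. Fatty acid uptake and oxidation had the highest median (0.32), and all 56 nuclear subunits of oxidative phosphorylation lay above 0.

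The largest rises that separated the groups are given first. Hspa1a and Hspa1b, which encode the inducible Hsp70 chaperone, rose by 2.22 ± 0.19 (log2 fold change ± SE) and 2.17 ± 0.22, and they are described with the other chaperones. Chrna2, a nicotinic acetylcholine receptor subunit, was at 1.51, 2.52, 0.66, 0.49 and 0.60 CPM in the CD libraries and at 5.24, 5.68, 4.88, 4.94 and 5.04 CPM in the WD+CHP libraries. The 5 treated libraries lay close together and above every CD library, and the rise was 2.15 ± 0.33 (adjusted p = 0.00103). Rab15, a small GTPase of the endosome, rose by 1.80 ± 0.23 (adjusted p = 0.000355) from 1.27 to 3.82 CPM in CD to 6.74 to 9.31 CPM in WD+CHP. Otud1, a deubiquitinase, rose by 1.66 ± 0.31, and its treated libraries were spread from 25.3 to 78.1 CPM against 10.4 to 24.7 CPM in CD. Nnat, an imprinted gene also active in fat cells, rose by 1.55 ± 0.26 and its highest treated library was at 4.39 CPM. The transcription factor Atf3 (1.90 ± 0.28) and the gene BC048679 (1.90 ± 0.31) also rose. Fabp3-ps1 rose by 1.57 ± 0.24, but it is a pseudogene copy of Fabp3 and reads may have been shared between them.

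The largest falls that separated the groups follow. Pfkfb3, whose enzyme makes the fructose bisphosphate activator that speeds glycolysis, was at 978, 786, 1087, 849 and 1065 CPM in CD and at 446, 403, 231, 202 and 396 CPM in WD+CHP. Every treated library lay below every CD library, with a log2 fold change of -1.51 ± 0.24 (adjusted p = 0.00151). Cyp2e1, a cytochrome P450 that oxidises ethanol and ketones, fell by 2.03 on the log2 scale (SE 0.28, adjusted p = 0.00052) from 10.8 to 16.9 CPM to 2.14 to 4.92 CPM. Cfd, the adipocyte serine protease adipsin, fell by 1.59 (SE 0.23) from 37.4 ± 12.7 to 12.5 ± 3.13 CPM (mean ± SD, n = 5). Lepr, the leptin receptor, fell by 1.35 (SE 0.16, adjusted p = 0.000184) from 3.44 to 5.32 CPM to 1.35 to 1.85 CPM. Slc43a1, a carrier of large neutral amino acids, fell by 1.30 (SE 0.14, adjusted p = 7.15e-05), and the protease gene Htra4 fell by 1.33 (SE 0.14). Actc1, the cardiac actin that fetal and regenerating muscle also make, fell by 1.59 (SE 0.29), with CD values from 153 to 518 CPM and treated values from 56.5 to 112 CPM. Its sequence is close to that of the abundant Acta1, so its counts are uncertain. Chad, Kera and Tnc belong to tendon and matrix and are given below with those genes.

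**Figure D2:**
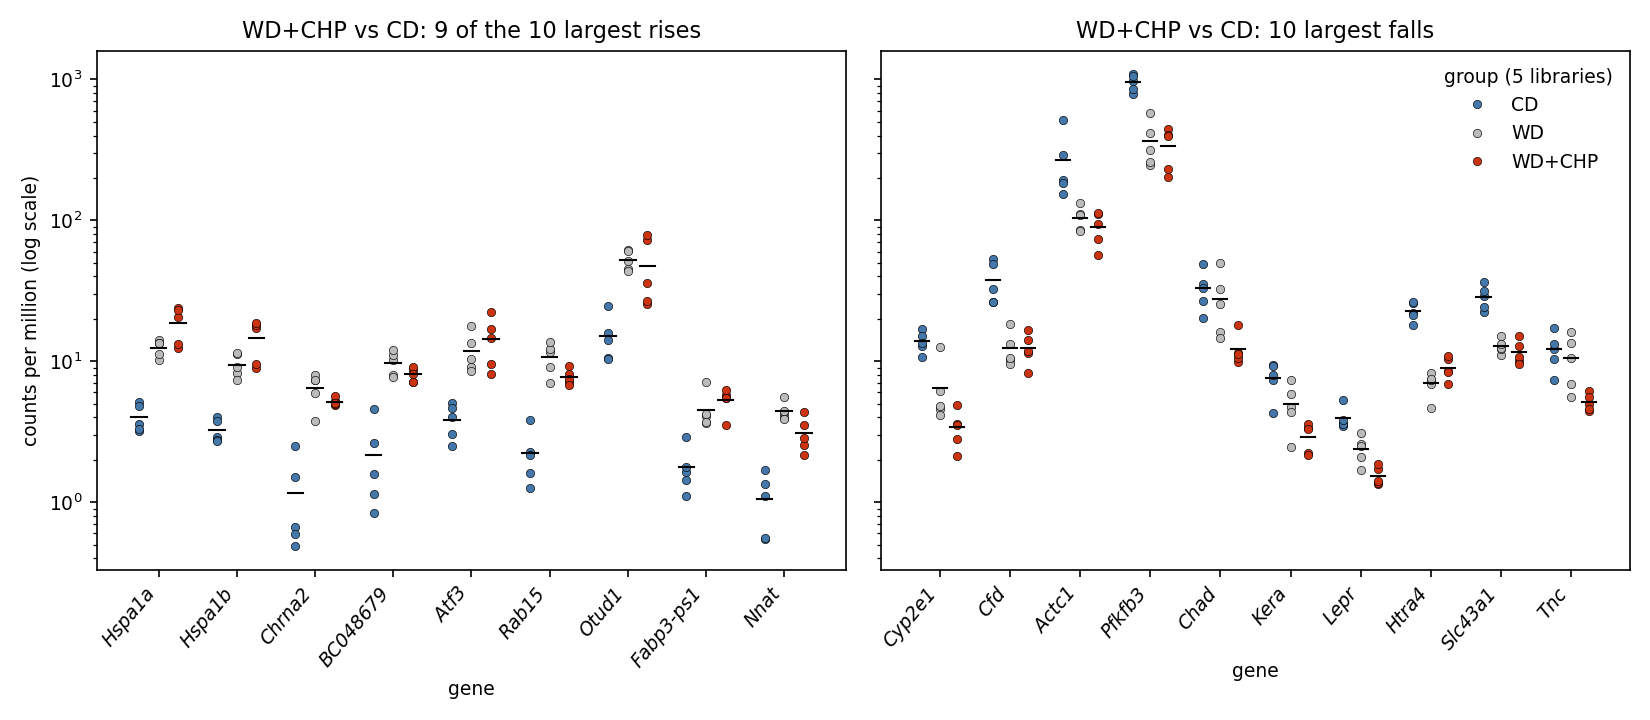
CPM on a log axis in each of the 15 gastrocnemius libraries for 9 of the 10 largest rises (left) and the 10 largest falls (right) of WD+CHP against CD, with a bar at each group mean. The WD+CHP libraries do not overlap the CD libraries in any of the 19 genes, since the genes were chosen so, and the WD libraries are shown in grey for reference.

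A part of the heat shock genes rose. Heat shock factors bind paired inverted repeats before chaperone genes when proteins unfold, and the chaperones then hold or refold their clients. Of 39 genes of the unfolded protein response and heat shock list, 11 rose and 0 fell, a share of 28.2% against the 4.85% of all genes, and the list median was 0.17. The remaining 28 did not pass, and 5 of the 39 values were below 0. Limma-voom called 10 higher and 1 lower, and 8 rose without both CD replicates 1 and 2. Hspa1a was at 3.6, 5.11, 3.17, 4.8 and 3.28 CPM in CD and at 20.7, 12.4, 23.9, 13.3 and 23.0 CPM in WD+CHP. Every treated library lay far above every CD library in both Hspa1a and Hspa1b, and the adjusted p values were 2.2e-05 and 3.69e-05. These genes lie beside each other on chromosome 17 and are near-identical, so the division of reads between them is uncertain. Bag3, the partner that couples Hsp70 to autophagy of damaged filaments, rose by 0.48 ± 0.07 (adjusted p = 0.00066) from 132 ± 11.9 to 184 ± 16.2 CPM. Hspb6, a small heat shock protein of muscle, rose by 0.44 ± 0.08 (adjusted p = 0.00434), and CD replicate 2 was its highest CD library at 525 CPM. The other 6 risers, chosen for mention after their values were seen, were the chaperones Hspb1, Cryab, Hspb7 and Hsp90aa1, the secreted ER factor Manf and the stress sensor Ern1. They rose by 0.23 to 0.76. Atf3, which is also on the list, completes the 11. The ER chaperone Hspa5, with a value of 0.17, did not pass the test.

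The promoters of 4 of the rising chaperone genes are shown because all hold the inverted repeat GAANNTTC, the core that heat shock factors recognise, on either strand. Each is a RefSeq window of 300 bases (250 before and 50 after the annotated start, GRCm38.p6), written 5′ to 3′ on the gene's strand, with the repeat in capitals. Hspb6 had 2 windows, and a window that held the repeat was chosen for print. In Bag3 the repeat lies after the annotated start, in the other 3 genes before it. The Hspa1a window is chr17:34972107-34972406 (minus strand), Hspa1b is chr17:34959189-34959488 (minus strand), Bag3 is chr7:128523333-128523632 (plus strand) and Hspb6 is chr7:30553051-30553350 (plus strand).
Hspa1a: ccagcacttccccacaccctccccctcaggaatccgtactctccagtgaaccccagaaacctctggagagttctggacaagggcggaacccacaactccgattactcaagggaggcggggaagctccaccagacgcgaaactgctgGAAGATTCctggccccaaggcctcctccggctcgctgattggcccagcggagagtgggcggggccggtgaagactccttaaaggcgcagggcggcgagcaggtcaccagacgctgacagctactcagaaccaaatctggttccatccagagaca
Hspa1b: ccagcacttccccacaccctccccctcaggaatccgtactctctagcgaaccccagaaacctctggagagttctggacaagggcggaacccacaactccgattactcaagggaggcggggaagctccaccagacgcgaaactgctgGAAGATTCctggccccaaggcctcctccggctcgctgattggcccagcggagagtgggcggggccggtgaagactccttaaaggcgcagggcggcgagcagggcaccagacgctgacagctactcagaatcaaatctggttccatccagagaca
Bag3: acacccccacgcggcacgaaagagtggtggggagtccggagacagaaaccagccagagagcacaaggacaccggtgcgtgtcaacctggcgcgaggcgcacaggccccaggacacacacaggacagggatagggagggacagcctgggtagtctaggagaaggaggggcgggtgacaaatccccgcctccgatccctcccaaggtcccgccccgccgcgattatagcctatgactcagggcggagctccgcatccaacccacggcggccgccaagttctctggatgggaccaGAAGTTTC
Hspb6: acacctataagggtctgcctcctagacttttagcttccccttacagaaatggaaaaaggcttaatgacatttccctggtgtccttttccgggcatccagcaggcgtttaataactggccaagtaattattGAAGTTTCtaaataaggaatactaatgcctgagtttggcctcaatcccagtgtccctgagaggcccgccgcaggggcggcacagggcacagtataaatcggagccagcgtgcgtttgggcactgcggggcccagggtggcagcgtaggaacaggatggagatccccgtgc
The windows of Hspa1a and Hspa1b were identical at 296 of 300 bases. Of the 11 list members that rose, 8 had a window in the table and 5 of these 8 held the repeat, and of all 39 members 33 had a window and 10 held it. Among all 27025 genes with a window the share was 9.04%, and among the tested genes with a window it was 7.08%. A match describes the letters of the window and says nothing of whether a factor bound there.

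Genes that take up and burn fatty acids made up the largest group of rises. Of 50 genes of fatty acid uptake and oxidation 27 rose (54%, against 4.85% of all genes tested) and 2 fell, and the list median was 0.32. Plin5, which tethers lipid droplets to mitochondria, was at 12.2, 16.3, 12.3, 8.71 and 10.7 CPM in CD and at 31.2, 43.0, 33.0, 34.5 and 30.8 CPM in WD+CHP, an increase of 1.52 ± 0.14 (adjusted p = 2.2e-05). The lowest treated library was well above the highest CD library. Slc25a20, the carrier that exchanges acylcarnitine for carnitine across the inner membrane, rose by 0.64 ± 0.07 (adjusted p = 8.1e-05) from 50.1 to 66.4 CPM to 82.8 to 94.3 CPM. Cpt2, which hands the fatty acid back to coenzyme A inside the mitochondrion, was at 53.3, 60.8, 54.4, 52.4 and 52.6 CPM in CD and at 76.5, 78.8, 76.1, 81.5 and 79.3 CPM in WD+CHP, an increase of 0.52 ± 0.06. Decr1, needed to oxidise polyunsaturated fatty acids, rose by 0.62 ± 0.07 from 80.7 ± 7.54 to 124 ± 2.96 CPM. Mlycd, which removes the malonyl-CoA that restrains fatty acid import, rose by 0.43 ± 0.05 (adjusted p = 0.000209).

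The other 22 risers were chosen for mention after their values were seen. They included the binding protein Fabp3 (1.35), the thioesterases Acot1 (1.40) and Acot2 (0.75), the acyl-CoA dehydrogenases Acadvl (0.56), Acadl (0.62), Acadm (0.40) and Acads (0.50), and both subunits of the trifunctional protein, Hadha (0.47) and Hadhb (0.53). Ppara, the fatty acid receptor itself, rose by 0.57 ± 0.12 (adjusted p = 0.00587). Of its textbook targets, 2 members moved the other way, Cpt1a (-0.32), the liver-type gatekeeper of import, and Pdk4 (-0.58), the kinase that closes pyruvate dehydrogenase. The muscle-type gatekeeper Cpt1b had a value of 0.16 and did not pass. Angptl4 (-0.84) and Ucp3 (-0.29) did not pass either. Leaving out any 1 library left 25 to 29 risers and 1 to 2 fallers, and leaving out both CD replicates 1 and 2 left 28 and 0. A half-site of nuclear receptors, AGGTCA on either strand, was in 9 of the 39 members' promoter windows found (23.1%), near the 18.1% of all genes with a window. Among tested genes with a window the share was 15.1%. Of the 27 risers 25 had a window, and 4 of these held the half-site (16%). Plin5, the list member with the smallest p, had 2 windows, and a window that held the half-site was chosen for print. The half-site is in capitals (chr17:56117499-56117798, minus strand, GRCm38.p6).
Plin5: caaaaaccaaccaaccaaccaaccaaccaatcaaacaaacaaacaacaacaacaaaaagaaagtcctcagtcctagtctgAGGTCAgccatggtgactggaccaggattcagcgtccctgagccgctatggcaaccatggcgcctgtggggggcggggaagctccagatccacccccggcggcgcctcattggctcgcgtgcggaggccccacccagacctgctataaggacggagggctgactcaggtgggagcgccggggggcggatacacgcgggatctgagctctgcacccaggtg

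**Figure D3:**
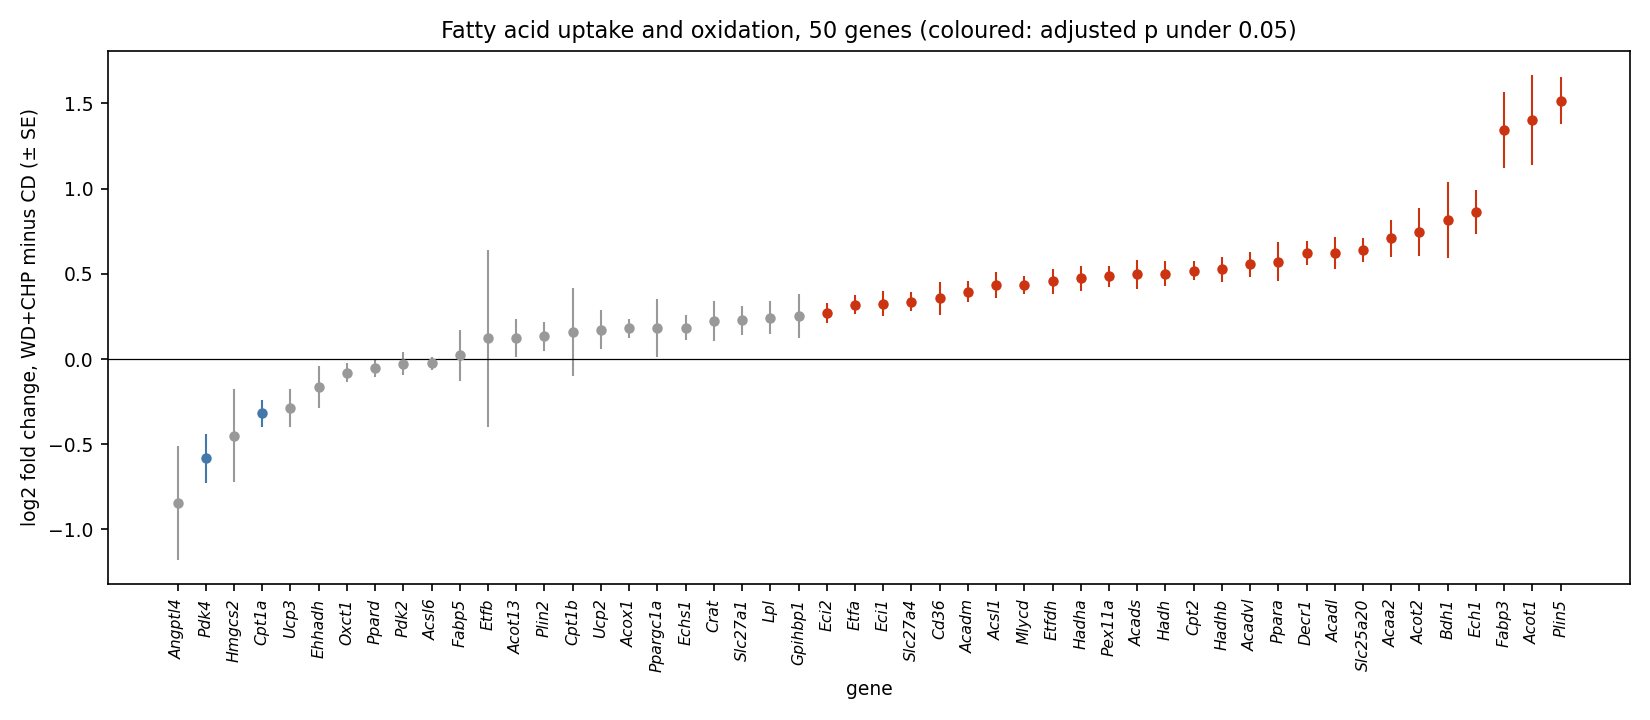
Log2 fold change of WD+CHP minus CD with its standard error for all 50 genes of fatty acid uptake and oxidation, ordered by size, with red for the 27 that rose, blue for the 2 that fell and grey for those that did not pass. Plin5, Acot1 and Fabp3 lie apart at the upper end, and 40 of the 50 values are above 0.

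Genes of fatty acid and triglyceride synthesis changed in both directions. Of 27 tested 9 fell (33.3%, against 4.55% of all genes) and 5 rose (18.5%, against 4.85%), 14 of the 27 values were above 0 and the median was 0.01. Without both CD replicates 1 and 2 there were 7 fallers and 9 risers. Fasn, the fatty acid synthase, was at 80.6, 61.2, 66.2, 52.9 and 118 CPM in CD and at 29.4, 37.5, 38.0, 34.1 and 27.8 CPM in WD+CHP. It fell by 1.18 (SE 0.19, adjusted p = 0.0014) without overlap, and CD replicate 5 was highest. Elovl6, which lengthens the palmitate that the synthase makes, fell by 1.20 (SE 0.20, adjusted p = 0.00182), and CD replicate 5 was again highest at 3.46 CPM. Pcx, pyruvate carboxylase, fell by 0.38 (SE 0.06). The other 6 fallers, mentioned after their values were seen, were Acly and Slc25a1, which supply cytosolic acetyl-CoA, Acaca, which commits it to synthesis, the desaturases Fads1 and Fads2, and Lpin1, a phosphatidate phosphatase that makes the diacylglycerol used for triglyceride. Leaving out any 1 library left 8 or 9 fallers.

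Dgat2, which adds the last acyl chain to triglyceride, rose by 1.11 ± 0.11 (adjusted p = 4.69e-05) from 21.2 to 32.3 CPM to 48.0 to 62.7 CPM, so its groups did not overlap. Mgll, which cleaves monoacylglycerol, rose by 0.42 ± 0.07. The remaining 3 risers of the list were Elovl1, Srebf1 and Agpat3, named after their values were seen. The count of 5 risers was 8 without CD replicate 2, 3 without CD replicate 3 or CD replicate 4, and 2 without WD+CHP replicate 5. Among 19 genes of lipid droplets and lipolysis 5 rose (26.3%, against 4.85% of all genes) and 0 fell. Besides Plin5 and Mgll these were Cidea (1.98 ± 0.31), a droplet-fusing protein whose highest treated library was at 1.58 CPM, Fitm2 (0.17 ± 0.04), which helps droplets bud from the ER, and G0s2 (0.79 ± 0.23), an inhibitor of triglyceride lipase. G0s2 overlapped between the groups and passed in 3 of the 10 fits that left out a library, those without CD replicate 2 or WD+CHP replicate 1 or 4. It did not pass with limma-voom, the replicate block, the offsets or the compared groups alone.

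Few cholesterol genes passed. Of 30 tested, 4 rose (13.3%, against 4.85% of all genes) and 2 fell (6.67%, against 4.55%), with a median of 0.02. Abcg1, a sterol exporter, rose by 0.80 ± 0.16 (adjusted p = 0.00589) from 1.95 to 2.72 CPM to 3.08 to 5.43 CPM. Mvd, a mevalonate pathway enzyme, rose by 0.78 ± 0.16, with single high libraries in both groups (CD replicate 2 at 7.51 and WD+CHP replicate 5 at 13.3 CPM). Cyp51, a lanosterol demethylase, rose by 0.35 ± 0.09, though its values overlapped between the groups. Mylip, a ubiquitin ligase, fell by 0.42 (SE 0.10), and Fdft1, squalene synthase, fell by 0.24 and is named after its value was seen. Cyp51 did not pass without CD replicate 3 or WD+CHP replicate 3, and the fallers numbered 1 without CD replicate 1, 3 or 5 or WD+CHP replicate 2, 3 or 5.

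Of 41 genes of glycolysis and glycogen 4 rose (9.76%, against 4.85% of all genes) and 3 fell (7.32%, against 4.55%), and the median of -0.03 was close to that of all genes. Beside Pfkfb3, Pgk1, phosphoglycerate kinase, fell by 0.29 (SE 0.05, adjusted p = 0.00433) from 821 to 982 CPM to 693 to 819 CPM. The third faller, named after its value was seen, was Gapdh. Slc16a1, a lactate and ketone transporter, rose by 0.56 ± 0.09 (adjusted p = 0.00117) from 35.0 to 39.1 CPM to 45.5 to 60.8 CPM. The rises of Pgam1 (0.58 ± 0.12) and Pfkl (0.33 ± 0.07) concern isoforms of phosphoglycerate mutase and phosphofructokinase that are not the main ones in muscle. The remaining riser was Pfkfb2, named after its value was seen. The fallers numbered 6 without CD replicate 2 and 9 without both CD replicates 1 and 2.

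In the insulin signalling list 3 of 40 genes rose (7.5%, near the 4.85% of all genes) and 5 fell (12.5%, against 4.55%). Tbc1d1, the Rab-GTPase activating protein that restrains glucose transporter traffic, rose by 0.77 ± 0.11 (adjusted p = 0.000741) and was at 40.7 to 63.3 CPM in CD and 83.3 to 96.0 CPM in WD+CHP. Igf1 fell by 0.74 (SE 0.16, adjusted p = 0.00994) from 9.97 to 13.8 CPM to 4.39 to 9.23 CPM, its receptor Igf1r fell by 0.37 (SE 0.07), and the binding protein Igfbp5 fell by 0.39 (SE 0.08). Igf2 fell by 0.95 (SE 0.22) at 0.68 CPM or less in every CD library. The fifth faller was Rictor, and Grb14 was among the risers, both named after their values were seen. Without WD+CHP replicate 3 there was 1 riser.

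A minority of the mitochondrial genes passed the test. The electron transport chain passes electrons from complexes I and II to oxygen and its proton gradient drives ATP synthase, with subunits encoded in both nucleus and mitochondrion. All 56 nuclear subunits tested had a positive log2 fold change, 11 of them passed (19.6%, against 4.85%) and 45 did not, and the median was 0.21. Summed, they were at 13780, 13900, 12320, 13010 and 12520 CPM in CD and at 13910, 15590, 15740, 14740 and 14810 CPM in WD+CHP. WD+CHP replicate 1 lay just above CD replicates 1 and 2, and the other treated libraries lay further above. Ndufv1, a flavoprotein of complex I, was at 246, 271, 241, 245 and 237 CPM in CD and at 283, 289, 305, 297 and 310 CPM in WD+CHP. Its groups were separate with CD replicate 2 closest to the treated libraries, and the rise was 0.26 ± 0.05 (adjusted p = 0.00306). Uqcrc1, a core protein of complex III, rose by 0.24 ± 0.05 (adjusted p = 0.00977) from 461 to 541 CPM to 564 to 624 CPM. Ndufa10 (0.24 ± 0.04), Uqcrc2 (0.18 ± 0.04) and the ATP synthase subunit Atp5a1 (0.20 ± 0.04) rose as well. The number that passed was 6 without CD replicate 3, CD replicate 5, WD+CHP replicate 2 or WD+CHP replicate 3, and 7 without CD replicate 4 or WD+CHP replicate 5. It was 19 with DESeq2, 21 when the model held only the 2 groups compared 17 with offsets for length and GC content and 18 without both CD replicates 1 and 2, while the median was 0.29 in the last of these and between 0.16 and 0.25 in the others.

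Of 13 mitochondrially encoded genes 4 rose (30.8%, against 4.85% of all genes), with a median of 0.29. Their summed level was 79160 to 101600 CPM in CD and 96470 to 112100 CPM in WD+CHP, so the groups overlapped. The polyA-selected mt-Co1, a cytochrome oxidase subunit, was at 38390, 36310, 31230, 35630 and 32340 CPM in CD and at 40660, 42920, 43730, 40180 and 42300 CPM in WD+CHP, a rise of 0.27 ± 0.07 (adjusted p = 0.0194). The groups were separate, but without CD replicate 3 the count was 0. It was 1 without WD+CHP replicate 3, and 2 without CD replicate 2, CD replicate 4 or WD+CHP replicate 2, 4 or 5. mt-Nd4 rose by 0.29 ± 0.07. Of the 10 fits without a library mt-Co1 passed in 7, failing without CD replicate 3 or 5 or WD+CHP replicate 3, and mt-Nd4 in 8, failing without CD replicate 3 or 5. The calls of mt-Atp6 and mt-Co3 were the least steady. mt-Atp6 passed in 1 of these fits, the one without CD replicate 5, and mt-Co3 in 2, those without CD replicate 5 or WD+CHP replicate 1. Their transcripts also lie next to or over neighbouring genes, which leaves their counts uncertain. In the tricarboxylic acid cycle list 9 of 23 genes rose (39.1%, against 4.85% of all genes) and 1 fell (4.35%, near the 4.55% of all genes), with a median of 0.15. Mdh1, the cytosolic malate dehydrogenase of the malate shuttle, rose by 0.46 ± 0.08 (adjusted p = 0.00238), its mitochondrial partner Mdh2 by 0.23 ± 0.05, and the dehydrogenase components Dlst by 0.24 ± 0.04 and Dlat by 0.22 ± 0.04. Pdp2, the phosphatase that reactivates pyruvate dehydrogenase, fell by 0.50 (SE 0.08, adjusted p = 0.00172). The risers numbered 4 without WD+CHP replicate 3, and 16 with DESeq2.

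Few fibre type genes passed. Slow fibres carry their own myosin, troponin and calcium pump isoforms. All 14 slow-fibre markers had a positive log2 fold change, with a median of 0.39, and 2 rose (14.3%, against 4.85% of all genes). Csrp3, a mechanosensor of the Z-disc, rose by 1.49 ± 0.30 (adjusted p = 0.0055) and was at 25.6, 56.2, 18.9, 24.4 and 23.8 CPM in CD and at 44.0, 66.7, 115, 85.3 and 107 CPM in WD+CHP. Ankrd2, a stretch-response gene, rose by 1.04 ± 0.20 (adjusted p = 0.00419). In both genes CD replicate 2 stood apart from the other CD libraries and overlapped the treated ones. The summed slow-fibre markers were at 808, 2016, 1463, 774 and 1073 CPM in CD and at 1266, 1434, 1839, 1317 and 2067 CPM in WD+CHP, again with CD replicate 2 high and the groups overlapping. Without that library 4 slow-fibre markers rose and the median was 0.67. Of 14 fast-fibre markers 0 passed with edgeR, against 9.40% of all genes, and 4 had an unadjusted p under 0.05. DESeq2 called 1 and limma-voom 0, and 2 rose without CD replicate 2. Of the 14 markers 12 had a negative value, among them Myh4, the fastest myosin (-0.22 ± 0.11, adjusted p = 0.217). CD replicate 2 was also the highest CD library in Cpt2 (60.8 CPM) and Ndufv1 (271 CPM), and the part of fibre type in the fatty acid and mitochondrial differences was not tested.

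Genes of nerve contact and excitation changed singly. Of 27 neuromuscular junction and denervation genes 5 rose (18.5%, against 4.85% of all genes) and 1 fell (3.7%, near the 4.55% of all genes). Dok7, the adaptor that activates the receptor kinase MuSK, rose by 0.70 ± 0.10 (adjusted p = 0.000682) from 13.3 to 16.3 CPM to 18.7 to 29.0 CPM. Gdf5 (2.25 ± 0.45), a BMP ligand induced by denervation, and Dach2 (0.57 ± 0.12), a repressor that responds to nerve activity, rose at low levels. Myod1, the myogenic factor (0.45 ± 0.13), rose but passed in 4 of the 10 fits without a library, failing without CD replicate 1, 3 or 5 or WD+CHP replicate 2, 3 or 5. Ankrd1, a stretch-response gene named after its value was seen, rose too. Chrne, the adult acetylcholine receptor subunit, fell by 0.37 (SE 0.09, adjusted p = 0.023) and passed in 6 of the 10 fits without a library, failing without CD replicate 3 or 5 or WD+CHP replicate 3 or 5. The risers numbered 3 without CD replicate 1, CD replicate 3, CD replicate 5, WD+CHP replicate 2 or WD+CHP replicate 5. Among 30 genes of calcium handling and excitation 3 rose (10%, against 4.85% of all genes) and 2 fell (6.67%, against 4.55%). Rcan1, an inhibitor and target of calcineurin, was at 78.5, 92.4, 59.8, 75.7 and 71.2 CPM in CD and at 170, 124, 131, 122 and 156 CPM in WD+CHP, a rise of 0.90 ± 0.12 (adjusted p = 0.000541) without overlap. Camk2b, a calcium-dependent kinase, rose by 0.24 ± 0.05, and the channel subunit Cacnb1 (-0.32 ± 0.07) and the kinase Camk2a (-0.21 ± 0.05) fell. Camk2a passed in 5 of the 10 fits without a library, failing without CD replicate 3 or 4 or WD+CHP replicate 2, 3 or 5, which left 1 faller, and it did not pass with no filter on low counts or with the offsets.

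In the list of muscle atrophy and protein breakdown 1 of 40 genes rose (2.5%, against 4.85% of all genes) and 5 fell (12.5%, against 4.55%). Ctsl, a lysosomal protease induced in wasting muscle, fell by 0.30 (SE 0.07, adjusted p = 0.00925), Smad3, the TGF-β signal transducer, by 0.35 (SE 0.08), Gadd45a by 0.53 (SE 0.14) and the ubiquitin ligase Nedd4 by 0.22 (SE 0.06). Gadd45a and Nedd4 each passed in 3 of the 10 fits without a library, and both failed without CD replicate 3, 4 or 5 or WD+CHP replicate 2 or 3. Nedd4 also failed without WD+CHP replicate 4 or 5, with no filter on low counts, the replicate block or the offsets, and Gadd45a without CD replicate 1 or WD+CHP replicate 1 and with the offsets and block together. The fifth was Sesn1, named after its value was seen. Psma1, a proteasome subunit, rose by 0.21 ± 0.05. The fallers numbered 2 without CD replicate 3, CD replicate 5, WD+CHP replicate 2 or WD+CHP replicate 3, and 3 without WD+CHP replicate 5.

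Markers of tendon cells were lower in WD+CHP. Tendon cells secrete small proteoglycans and glycoproteins that space collagen fibrils. Of 8 tendon cell markers 5 fell (62.5%, against 4.55% of all genes) and 8 of 8 had a negative value, with a median of -1.03. Fmod, fibromodulin, was at 215, 237, 367, 231 and 155 CPM in CD and at 93.9, 95.8, 136, 89.9 and 101 CPM in WD+CHP, and fell by 1.22 (SE 0.26, adjusted p = 0.0087) without overlap. Chad, chondroadherin, fell by 1.43 (SE 0.30, adjusted p = 0.00779), Kera, keratocan, fell by 1.39 (SE 0.25), Comp fell by 1.19 (SE 0.33) and Thbs4 fell by 0.86 (SE 0.23). Comp and Thbs4 each passed in 5 of the 10 fits without a library, and Fmod, Chad and Kera in all 10. The summed tendon markers were at 461, 522, 738, 482 and 343 CPM in CD and at 214, 237, 314, 221 and 223 CPM in WD+CHP, and WD libraries spanned 260 to 750 CPM. In bulk muscle, fewer cells of a type and less RNA per cell cannot be told apart. Without CD replicate 3 or WD+CHP replicate 1, 2, 4 or 5, where Comp and Thbs4 failed, the fallers numbered 3.

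Of 55 genes of extracellular matrix and fibrosis 8 fell (14.5%, against 4.55% of all genes) and 3 rose (5.45%, near the 4.85% of all genes). Tnc, tenascin C, which is concentrated at the junction of muscle and tendon, was at 12.2, 13.3, 17.2, 10.4 and 7.39 CPM in CD and at 4.46, 4.98, 6.16, 4.61 and 5.57 CPM in WD+CHP, and fell by 1.23 (SE 0.26, adjusted p = 0.0073). Lox, the lysyl oxidase that cross-links collagen, was at 10.4, 11.5, 15.5, 9.95 and 8.80 CPM in CD and at 5.95, 5.83, 6.72, 6.16 and 6.22 CPM in WD+CHP, and fell by 0.86 (SE 0.16, adjusted p = 0.00346). Both genes were separate between the groups. Dcn, decorin, fell by 0.57 (SE 0.11) and Col14a1, a fibril-associated collagen, by 0.73 (SE 0.15), and Fmod and Thbs4, counted above, are members too. The other fallers, named after their values were seen, were Mmp14 and Thbs1. Acta2, smooth muscle actin, rose by 0.56 ± 0.11 (adjusted p = 0.00531), as did Serpinh1 and Eln, also named after their values were seen. The part of tendon in the fall of the matrix genes was not tested. The fallers numbered 5 without CD replicate 3 or WD+CHP replicate 4 and also without both CD replicates 1 and 2, where the risers numbered 5, and 1 riser was left without WD+CHP replicate 3.

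**Figure D4:**
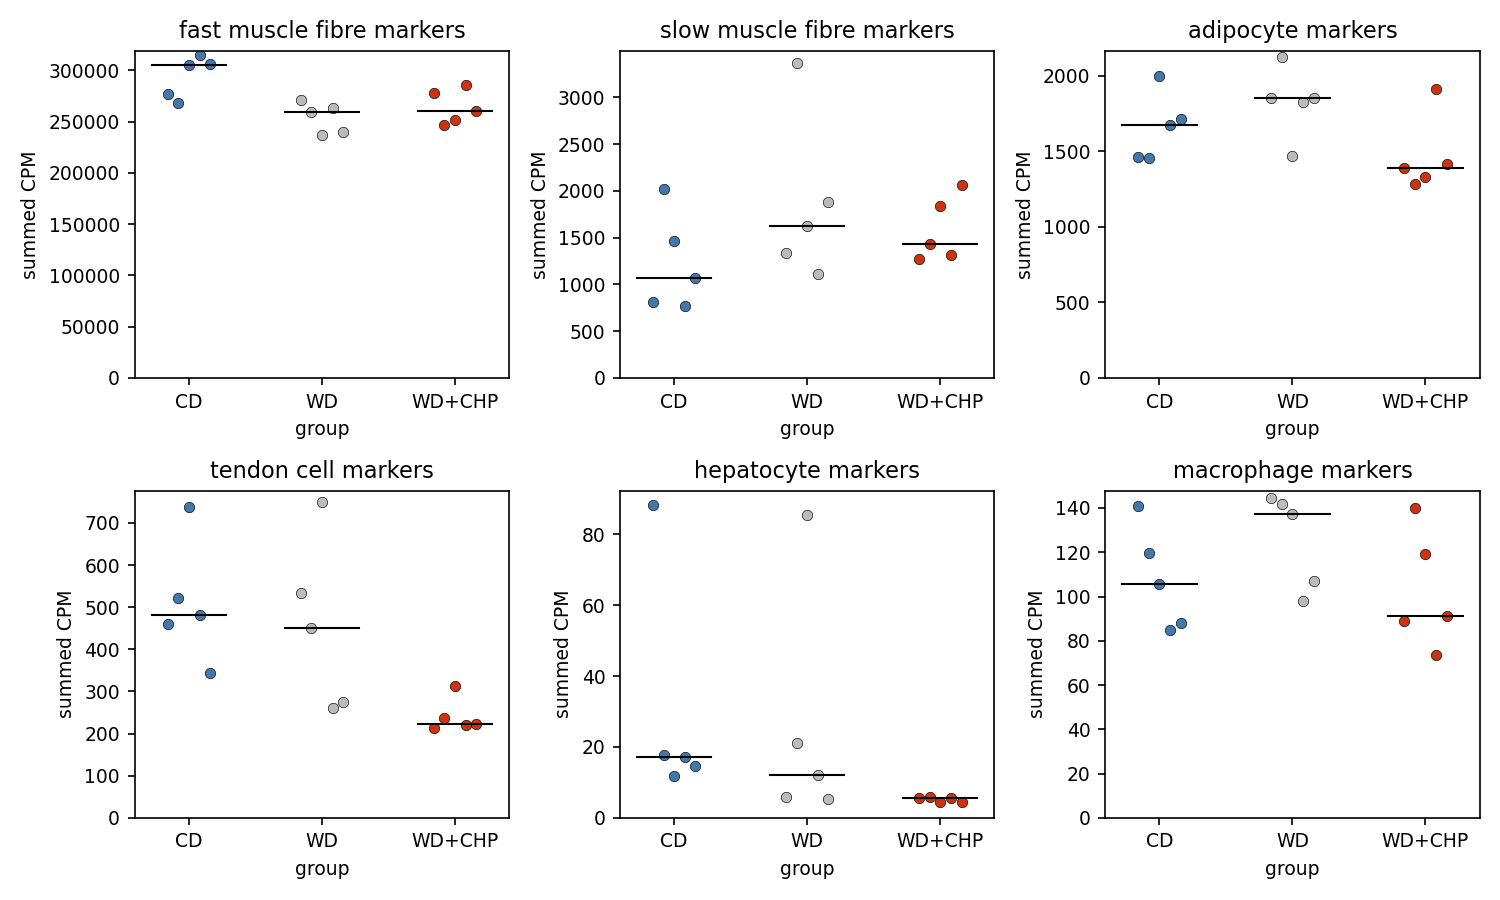
Summed CPM of the markers of 6 cell types in each of the 15 gastrocnemius libraries, with a bar at each group's median and each vertical axis starting at 0. The 5 WD+CHP libraries lie below the 5 CD libraries for tendon cell and hepatocyte markers and overlap them for fibres, adipocytes and macrophages. Outside CD replicate 1 the CD hepatocyte sums of 11.8 to 17.8 CPM were mostly Cyp2e1 (10.8 to 15.1 CPM), and albumin overlapped between the groups.

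Other cell types were checked by markers. Of 18 adipocyte markers 3 rose (16.7%, against 4.85% of all genes) and 4 fell (22.2%, against 4.55%), or 2 without both CD replicates 1 and 2. Their sum was 1455 to 1994 CPM in CD and 1283 to 1909 CPM in WD+CHP, and WD+CHP replicate 4 was the highest treated library. Lep, leptin, rose by 2.08 ± 0.43 (adjusted p = 0.00667) from 0.56 to 3.84 CPM to 3.24 to 9.51 CPM, with CD replicate 3 inside the treated range. Acvr1c, an activin receptor of fat cells, fell by 1.21 (SE 0.28), and Pck1, phosphoenolpyruvate carboxykinase, fell by 0.71 (SE 0.16, adjusted p = 0.0111), next to the falls of Cfd and the rise of Nnat already given. Trarg1 rose and Slc7a10 fell, both named after their values were seen. Of 6 brown adipocyte markers tested Cidea and Ppara rose (33.3%, against 4.85% of all genes). Ucp1, the defining gene of brown fat, had a mean of at most 1.2 counts in each of the 3 groups. Of 14 macrophage, 9 Schwann cell, 4 red blood cell, 2 lymphocyte and 1 neutrophil markers tested 0 passed with edgeR, DESeq2 or limma-voom. With edgeR 9.40% of all genes passed, and 0 of these markers had an unadjusted p under 0.05. Against 4.85% of all genes, Eng rose in endothelium (1 of 12, 8.33%), Acta2 and Tagln in smooth muscle (2 of 10, 20%) and Myod1 in satellite cells (1 of 8, 12.5%). Dcn fell in fibroblasts (1 of 13, 7.69%, against 4.55% of all genes). Acta2 passed in all 10 fits without a library. Eng passed in 3, failing without CD replicate 1, 3, 4 or 5 or WD+CHP replicate 1, 3 or 5, and Tagln in 4, failing without CD replicate 3 or 4 or WD+CHP replicate 2, 3, 4 or 5. Eng and Myod1 also failed with the replicate block and with the offsets, and Eng with no filter on low counts. All 7 hepatocyte markers tested had a negative value, but Cyp2e1 alone passed, and their median of -3.12 was -0.42 without CD replicate 1. The albumin RNA of hepatocytes was at 2473 counts in CD replicate 1, at 20 to 118 in the other CD libraries and at 14 to 92 in WD+CHP, so beyond that library the groups overlapped. Cyp2e1 itself was at 16.9 CPM in CD replicate 1 and at 10.8 to 15.1 CPM in the other CD libraries, and it passed in 10 of 10 fits without a library.

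No inflammation gene passed the test in muscle. With edgeR 0 of 40 inflammation genes passed, against 9.40% of all genes tested. The count was also 0 with DESeq2 and limma-voom, and 3 of the 40 had an unadjusted p under 0.05. Socs3, a cytokine feedback inhibitor, had the smallest p, with WD+CHP replicate 1 at 26.7 CPM and the other treated libraries at 1.86 to 6.24 CPM (1.40 ± 0.60, adjusted p = 0.153). C3, complement component 3, was at -0.44 ± 0.20 (adjusted p = 0.177). Of 36 interferon-stimulated genes Gbp7, a guanylate-binding protein, fell by 0.70 (SE 0.12, adjusted p = 0.00234) and the others did not pass, a share of 2.78% against the 4.55% of all genes.

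Of 35 antioxidant genes tested 4 rose (11.4%, against 4.85% of all genes) and 1 fell (2.86%, below the 4.55% of all genes). The fallers numbered 0 without CD replicate 3, CD replicate 5 or WD+CHP replicate 3, 2 without CD replicate 2 or WD+CHP replicate 4, and 3 without both CD replicates 1 and 2. Srxn1, sulfiredoxin, which repairs overoxidised peroxiredoxins and is a target of NRF2, had the smallest p of any named gene. It was at 18.8, 19.6, 20.2, 22.0 and 21.4 CPM in CD and at 32.2, 31.2, 34.4, 35.4 and 37.4 CPM in WD+CHP, a rise of 0.74 ± 0.06 (adjusted p = 1.34e-05). The spread within each group was small beside the gap. Cat, catalase (0.51 ± 0.08), Prdx6 (0.31 ± 0.05) and Prdx2 (0.23 ± 0.07) rose, and the secreted peroxidase Gpx3 fell by 0.39 (SE 0.10). Prdx2 passed in 3 of the 10 fits without a library, failing without CD replicate 3, 4 or 5 or WD+CHP replicate 2, 3, 4 or 5, and it did not pass with total-count scaling, no filter on low counts or the replicate block. Gpx3 passed in 7. The NRF2 targets Nqo1 (0.14), Gclm (-0.12) and Hmox1 (-0.10) did not pass.

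Among 35 immediate early and ERK feedback genes 5 rose (14.3%, against 4.85% of all genes) and 2 fell (5.71%, near the 4.55% of all genes). Jund, an AP-1 subunit, rose by 0.49 ± 0.07 (adjusted p = 0.00101) and Ccnd1, cyclin D1, by 0.59 ± 0.16, while Myc fell by 0.79 (SE 0.18) and Spred2, an ERK pathway inhibitor, by 0.26 (SE 0.07). The other risers beside Atf3 were Nr4a3 and Spred3, named after their values were seen. Ccnd1 passed in 4 of the 10 fits without a library, failing without CD replicate 1, 3 or 5 or WD+CHP replicate 2, 3 or 5 and with limma-voom. Spred2 also passed in 4, failing without CD replicate 2, 4 or 5 or WD+CHP replicate 2, 4 or 5, which left 1 faller, and with no filter on low counts. The risers numbered 2 or 3 in 8 of the 10 fits, and the fallers 4 without WD+CHP replicate 3. Of 23 muscle-secreted and fasting hormone genes Metrnl (0.60 ± 0.12), Vegfb (0.25 ± 0.06) and Fgf1 (0.42 ± 0.11) rose. Dcn and Igf1 fell (8.7%, against 4.55% of all genes). Fgf1 passed in 4 of the 10 fits without a library, failing without CD replicate 3, 4 or 5 or WD+CHP replicate 2, 3 or 4 (adjusted p from 0.00549 to 0.072 over the 10), and Vegfb did not pass with the offsets for length and GC content. The risers of this list (13%, against 4.85% of all genes) numbered 6 without CD replicate 2 and 5 without both CD replicates 1 and 2. Nfil3, a clock output repressor, rose by 0.50 ± 0.15 (adjusted p = 0.04), the 1 of 23 circadian genes that passed (4.35%, near the 4.85% of all genes). It passed in 4 of the 10 fits without a library, failing without CD replicate 3, 4 or 5 or WD+CHP replicate 1, 4 or 5, and not with limma-voom (adjusted p = 0.056), the replicate block, the offsets or the compared groups alone. In branched-chain amino acid breakdown 1 of 25 rose (4%, near the 4.85% of all genes), Acat1 (0.32 ± 0.05), and 1 fell (4%, near the 4.55%), Ppm1k (-0.33 ± 0.06), the phosphatase that activates the rate-setting dehydrogenase. The risers there numbered 5 with DESeq2, 4 with the offsets or the compared groups alone, 3 with total-count scaling or without WD+CHP replicate 1, and 2 without CD replicate 1 or 4, and the fallers 2 without CD replicate 1.

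The WD libraries share the model and set these values in place. The contrasts of WD+CHP with WD, and of WD with CD, each share 5 libraries with the one described here, so the values are given side by side and no agreement is read from them. Plin5 was 1.53 ± 0.14 higher in WD than in CD, and WD+CHP differed from WD by -0.02 ± 0.13 (log2). Fatty acid uptake and oxidation had a median of 0.31 for WD minus CD and -0.02 for WD+CHP minus WD. The nuclear oxidative phosphorylation median depended on WD replicate 5, whose summed level was 17170 CPM against 12780 to 14100 CPM in the other WD libraries. It was 0.18 and 0.01, respectively, with that library and 0.03 and 0.17 without it, an alternative chosen after the data were seen. Srxn1 stood at 0.49 for WD minus CD and 0.25 for WD+CHP minus WD (adjusted p = 0.098). Of the 118 named genes 3 passed in WD+CHP vs. WD (2.54%, against 0.409% of all genes tested), namely Lep, Lox and Pck1. Lep and Pck1 are adipocyte markers. Of the 18 adipocyte markers tested 7 fell in WD+CHP vs. WD and 0 rose, with a median of -0.66, and their sum was 1466 to 2122 CPM in WD and 1283 to 1909 CPM in WD+CHP. Of the 8 tendon cell markers 0 passed with edgeR, DESeq2 or limma-voom, though 7 had an unadjusted p under 0.05, and their median was -0.86. The part of either cell type in the falls of Lep, Pck1 and Lox was not tested.

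Lep was at 24.9, 23.1, 20, 19.4 and 21.1 CPM in WD, so the treated libraries, at 3.24 to 9.51 CPM, lay below every WD library (-1.89, adjusted p = 0.033). This call did not pass without WD+CHP replicate 1, 3 or 5 or without WD replicate 1, 2 or 3, and it passed in 9 of 15 fits that left out a library (adjusted p from 0.005 to 0.12). It did not pass with the replicate block either. Lox was at 13.6, 12.1, 14, 7.97 and 9.00 CPM in WD, and WD+CHP was lower by -0.88 (adjusted p = 0.025), a call that passed in 7 of 15 such fits, failing without any 1 of the WD+CHP libraries or without WD replicate 1, 2 or 3 (adjusted p from 0.0115 to 0.0822). Pck1 was at 8.84 to 13.5 CPM in WD and 4.98 to 7.20 CPM in WD+CHP, lower by -0.89 (adjusted p = 0.02), and it passed in 11 of 15 fits, failing without WD+CHP replicate 1, 3 or 4 or WD replicate 1 (adjusted p from 0.0145 to 0.0787). For Lox and Pck1 the WD vs. CD values were 0.01 and 0.19 and did not pass.

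The same contrast was available in kidney, and the difference between the tissues was tested as an interaction over 18708 genes, of which 1082 passed (5.78%). The labels do not tie kidney and muscle libraries to mice, and the study had fewer mice than libraries, so some libraries share a mouse while the test took them as independent. The gastrocnemius effect was the higher in 520 and the lower in 562, a split that was 1052 to 399 with total-count scaling. Of the 118 named genes 104 had a mean of at least 10 counts in kidney, and 93 of these 104 were called in gastrocnemius. Of these 93 the difference between tissues passed in 43 and the kidney effect itself in 12. The share of all genes called in kidney is not given here, so the 12 is not set against it. These genes were chosen for their muscle change, so fewer calls in kidney follow from the choice. Of all genes called in muscle 1440 were in the interaction fit, and the difference passed in 525 of them. The muscle effect that chose these and the named genes is part of the interaction. More passes than the 5.78% of all genes thus follow in part from the choice, and the counts are not read as a result. Plin5 was at -0.35 ± 0.15 in kidney, a difference of 1.88 ± 0.20 from muscle (adjusted p = 1.67e-06). Slc25a20 differed by 0.75 ± 0.09, Decr1 by 0.52 ± 0.09 and Mlycd by 0.46 ± 0.08, each with a kidney value between -0.10 and 0.12. Hspa1a differed by 2.53 ± 0.33 and Pfkfb3 by -1.42 ± 0.28, with kidney values of -0.29 and -0.08. Ccnd1 also rose in kidney, by 1.51 (adjusted p = 1.51e-06), and its muscle effect differed from that by -0.91 (adjusted p = 0.025), a difference that did not pass with limma-voom or without kidney WD+CHP replicate 3 or 4. For Cfd the values were -1.59 in muscle and -1.67 in kidney, and the difference of 0.09 did not pass.

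**Figure D5:**
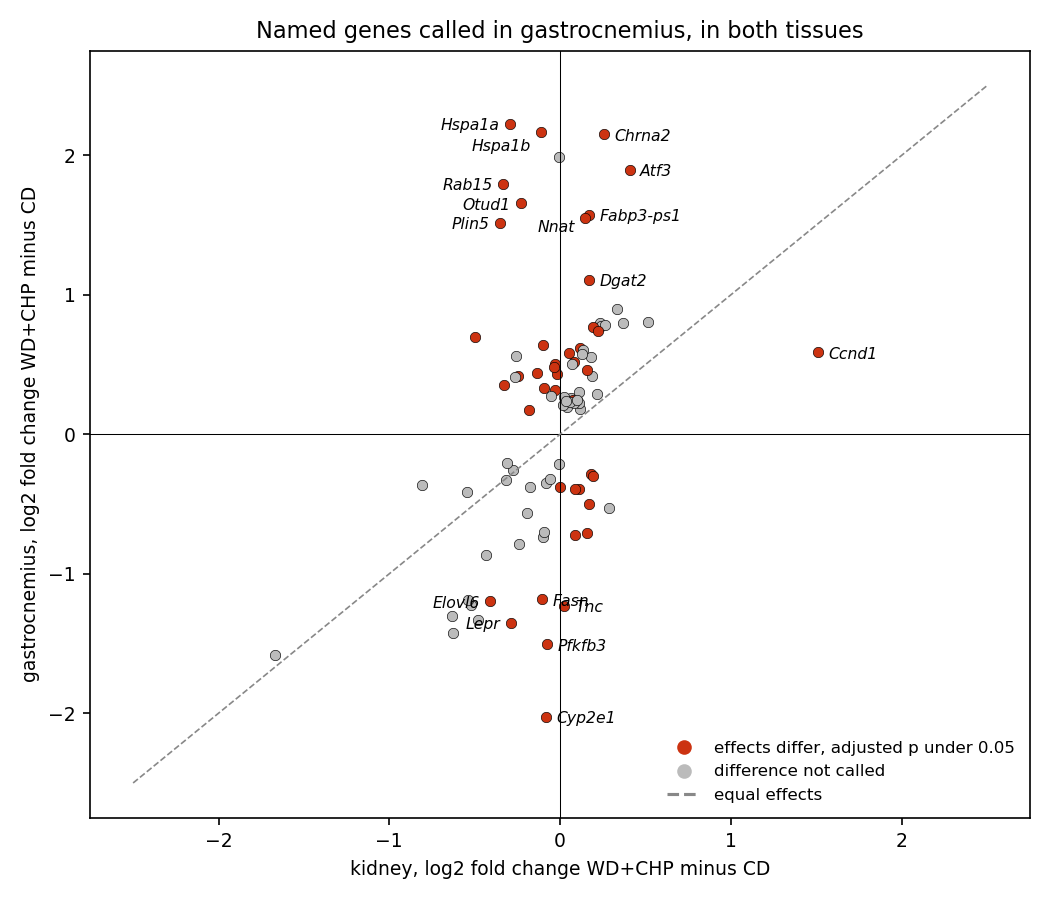
Log2 fold change of WD+CHP minus CD in kidney (horizontal) and gastrocnemius (vertical) for the named genes called in gastrocnemius with a mean of at least 10 kidney counts, with equal effects on the dashed line. Red marks the 43 genes whose effects differed between the tissues with an adjusted p under 0.05. The genes were chosen for their muscle change, so a smaller kidney effect follows from the choice, as do more called differences.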

How the data were processed

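PolyA RNA of 1 mouse per library was sequenced on a BGISEQ platform. Per the study's methods and the submitters' processing notes, reads were cleaned and aligned to GRCm38 (mm10) with STAR 2.7.3a. The authors deposited raw counts per gene, 1 table per tissue. The counting tool, annotation and use of strand are not given in the sources used here. The labels describe frozen liver and the methods gastrocnemius.

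Counts of the 15 gastrocnemius libraries were fitted in 1 model with edgeR 4.0.16 (R 4.3.3), keeping genes by filterByExpr with a minimum count of 10, with TMM scaling, two-sided quasi-likelihood tests and Benjamini-Hochberg adjustment over all genes kept, threshold 0.05. Levels are CPM on TMM-scaled library sizes. Tissue differences were an interaction over 30 libraries taken as independent, although the labels do not tie libraries of both tissues to mice and some share one. No table held a column outside the series. Alternatives were DESeq2 1.42.0, limma-voom (limma 3.58.1), other scalings, filters and thresholds, length and GC offsets, a replicate block, and leaving out each library. Leaving out CD replicates 1 and 2 together, or WD replicate 5, was added after the data were seen. On simulated data of 15313 genes the main test recovered 65% of genes changed by 0.5 and 92% of those changed by 1 (log2), with 6 false calls. The tissue-difference test recovered 54% and 82%, with 11 false calls. In each simulation 100 well-counted genes of each size were changed and counts were drawn independently. It thus lacked shifts that genes share within a library, and recovery may be lower in these data.

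The members, gene lists and tests were chosen with earlier results of these data known. Named genes were the 10 largest rises and falls among called genes with a mean log2 CPM of at least 1, no overlap between the groups and no predicted symbol, up to 5 called members of each list by smallest adjusted p, and 2 members of lists with none (the smallest p, or the highest level for marker lists). Others are said to be named after their values were seen. P-values measure the spread between mice of 1 study. Promoters came from a RefSeq table (GRCm38.p6). Results of some genes that the rule names are not reported here.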

Additional observations from a re-analysis of the deposited data

Results flagged for a closer look

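In a search of 268 groups of 5 values, single libraries stood apart from the other 4 of their group by a gap over 0.71 of the group's range, which chance alone gives in about 1 of 20 groups. CD replicate 2 was high for Cpt2 (60.8 CPM), Mvd (7.51 CPM), Ndufv1 (271 CPM), Hspb6 (525 CPM), Vegfb (96 CPM), Ankrd2 (105 CPM) and Csrp3 (56.2 CPM). Other single libraries that were high were WD+CHP replicate 3 for Chad (18.1 CPM), CD replicate 3 for Lepr (5.32 CPM), WD+CHP replicate 1 for Pcx (106 CPM), WD+CHP replicate 5 for Mvd (13.3 CPM), WD+CHP replicate 4 for Ctsl (76.2 CPM), CD replicate 1 for Socs3 (6.13 CPM), WD+CHP replicate 1 for Socs3 (26.7 CPM), CD replicate 3 for Lep (3.84 CPM), WD+CHP replicate 3 for Fmod (136 CPM), WD+CHP replicate 1 for Hba-a1 (9.4 CPM) and WD+CHP replicate 1 for Hbb-bs (7.58 CPM). Other single libraries that were low were WD+CHP replicate 1 for Fabp3-ps1 (3.55 CPM), WD+CHP replicate 1 for Atp5a1 (2060 CPM) and CD replicate 3 for Acta2 (38.2 CPM). Among summed marker levels, those high in 1 library were adipocyte markers in WD+CHP replicate 4 (1910 CPM), endothelial cell markers in CD replicate 2 (568 CPM), tendon cell markers in WD+CHP replicate 3 (314 CPM), red blood cell markers in WD+CHP replicate 1 (20.4 CPM) and hepatocyte markers in CD replicate 1 (88.1 CPM). Both haemoglobin genes were high in the same library.

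The effect of WD+CHP against CD differed between gastrocnemius and kidney, by the edgeR interaction test with an adjusted p under 0.05, in 43 named genes. They were chosen for their muscle change, so more such calls follow in part from the choice. The log2 effect in gastrocnemius minus that in kidney was positive for Hspa1a (2.53), Hspa1b (2.29), Chrna2 (1.90), Atf3 (1.5), Rab15 (2.14), Otud1 (1.90), Fabp3-ps1 (1.41), Nnat (1.41), Plin5 (1.88), Slc25a20 (0.75), Cpt2 (0.44), Decr1 (0.52), Mlycd (0.46), Dgat2 (0.94), Fitm2 (0.37), Cyp51 (0.69), Pgam1 (0.54), Pfkl (0.44), Tbc1d1 (0.58), Acat1 (0.36), Dlst (0.18), Mdh1 (0.31), Dok7 (1.21), Srxn1 (0.53), Cat (0.55), Bag3 (0.53), Hspb6 (0.58) and Fgf1 (0.68). It was negative for Cyp2e1 (-1.93), Pfkfb3 (-1.42), Lepr (-1.06), Tnc (-1.25), Fasn (-1.06), Pcx (-0.37), Elovl6 (-0.78), Pgk1 (-0.45), Igfbp5 (-0.49), Pdp2 (-0.66), Ctsl (-0.48), Col14a1 (-0.80), Gpx3 (-0.47), Ccnd1 (-0.91) and Pck1 (-0.85). Of these 43 differences 33 also passed in each of 20 fits that left out a library. The others passed in 5 of the 20 for Atf3 and for Col14a1, 6 for Mdh1, 10 for Dlst, Fabp3-ps1 and Gpx3, 11 for Elovl6, 15 for Pcx, 18 for Ccnd1 and 19 for Tnc, which failed without gastrocnemius CD replicate 3. With the replicate block Dlst and Mdh1 did not pass, and neither passed with no filter on low counts or with the compared groups alone. Limma-voom did not call Atf3, Ccnd1, Col14a1, Elovl6, Fabp3-ps1 or Tnc. Total-count scaling did not call Col14a1, Elovl6, Gpx3 or Pcx.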

How the results depend on the processing

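The count of 1450 genes called between WD+CHP and CD ran from 873 to 1617 when 1 library was left out. It was 2429 at an adjusted p under 0.1 and 126 with an absolute log2 fold change of at least 1 as well, both by construction of the threshold. DESeq2 called 1882 genes, limma-voom 1402, DESeq2's size factors 1460, total-count scaling 1394, no filter on low counts 1047, at least 10 counts in every library 1460, a model of the compared groups alone 1577, and offsets for gene length and GC content 1561. Without CD replicates 1 and 2 together it was 1633, and without WD replicate 5 it was 1713, both added after the data were seen. The 1082 tissue differences became 682 with no filter, where 37512 genes were tested, 1938 at an adjusted p under 0.1, 184 with the fold limit, and 753 to 1455 when 1 library was left out. With total-count scaling 1052 of them were higher and 399 lower in gastrocnemius, against 520 and 562, and the cause was not tested. Of 106 called named genes 85 passed in every fit without a library, and 95 in every other alternative, those added after the data were seen not included.

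Same-numbered WD+CHP and CD libraries did not deviate together (correlations of -0.163 to 0.071), so the numbers do not pair them. A replicate block gave 1242 called genes and 1105 tissue differences, 1396 and 1078 with the length and GC offsets, and it moved the fallers of the extracellular matrix list from 8 to 14 and the nuclear oxidative phosphorylation risers from 11 to 6. It moved the risers of the synthesis list from 5 to 3 and the fallers of the atrophy list from 5 to 3. The Lep call of WD+CHP against WD and the tissue differences of Dlst and Mdh1 were lost under it. With DESeq2 the synthesis risers numbered 8, the glycolysis fallers 5, the calcium fallers 4 and the secreted hormone risers 5. With the length and GC offsets the insulin risers numbered 5, the antioxidant risers 7 and the tricarboxylic acid cycle risers 14, and with limma-voom the immediate early risers 3.

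Of the genes named as markers that did not pass, some changed sign. With 1 library left out, Lyz2 ran from -0.281 to 0.011 (positive without WD+CHP replicate 4) and Igkc from -0.206 to 0.952 (negative without CD replicate 2 or WD+CHP replicate 2). Hba-a1 ran from -0.483 to 0.669 and Hbb-bs from -0.313 to 0.642, both negative without WD+CHP replicate 1, and Hba-a1 was at -0.133 with the offsets and the block. The hepatocyte median of -3.12 was -1.27 with limma-voom. The causes were not tested. Depth limits the genes of lowest count: 15419 of 31251 genes with a count passed the filter.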
